A study of Mus musculus with 9 samples.

Results

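The 10 genes described here encode subunits, kinases and inhibitors of the transcription factor NF-kappaB, and were taken by gene symbol from the 24532 genes listed for the medial prefrontal cortex (mPFC) of each mouse. They are the subunits Rela, Relb, Nfkb1 and Nfkb2, the kinase genes Chuk, Ikbkb and Ikbkg, the inhibitors of kappaB Nfkbia and Nfkbib, and Tnfaip3, which encodes the ubiquitin-editing enzyme A20. RNA was sequenced from 9 male C57BL/6 mice, 11 weeks of age by the sample labels, with 3 mice in each of 3 groups and 1 library per mouse. CT mice were wild type and stayed unrestrained, WT_ST mice were wild type and exposed to chronic restraint stress, and KO_ST mice were homozygous for a knockout allele of Fkbp5 (Fkbp5-/-) and were exposed to the same stress. Restraint lasted 6 h per day over 21 days, and all 3 groups went without food and water during those hours. All mice were bred from heterozygous Fkbp5 parents after 10 generations of backcrossing to C57BL/6J. With no unstressed knockout group, the difference of KO_ST from CT holds both genotype and stress, and the part due to each cannot be told apart.

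NF-kappaB is a family of dimeric transcription factors that wait in the cytoplasm, bound by inhibitor proteins. When a cytokine or microbial product binds its receptor, a kinase complex phosphorylates the inhibitor, which is degraded, and the freed dimer enters the nucleus and switches on genes of inflammation and cell survival, among them the genes of its own inhibitors. In the brain the pathway is used by microglia, astrocytes, vessel cells and neurons. FKBP51, the protein made from Fkbp5, is known to act on the glucocorticoid receptor and has also been tied to the kinase complex of NF-kappaB. Glucocorticoids are known to induce Nfkbia in several cell types. The comparison of the groups asks whether the transcripts of this pathway differed after chronic stress and with loss of Fkbp5.

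The promoters of 3 of the genes held matches to the kappaB consensus, the decamer bound by NF-kappaB dimers, and are shown because their genes encode the inhibitors and the precursor subunit through which the pathway feeds back on itself. Each is 300 bases of the gene's strand, 250 before and 50 after an annotated start, from RefSeq on GRCm38.p6, with consensus matches in capitals. The Nfkbia promoter lies at chr12:55492598-55492897 on the minus strand. The Tnfaip3 promoter lies at chr10:19015361-19015660 on the minus strand. The Nfkb2 promoter lies at chr19:46304487-46304786 on the plus strand.
Nfkbia: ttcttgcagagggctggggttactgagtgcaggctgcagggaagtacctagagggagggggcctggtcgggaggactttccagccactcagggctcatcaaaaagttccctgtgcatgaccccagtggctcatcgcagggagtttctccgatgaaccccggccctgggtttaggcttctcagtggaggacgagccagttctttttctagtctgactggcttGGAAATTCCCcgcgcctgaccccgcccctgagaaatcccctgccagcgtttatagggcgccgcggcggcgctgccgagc
Tnfaip3: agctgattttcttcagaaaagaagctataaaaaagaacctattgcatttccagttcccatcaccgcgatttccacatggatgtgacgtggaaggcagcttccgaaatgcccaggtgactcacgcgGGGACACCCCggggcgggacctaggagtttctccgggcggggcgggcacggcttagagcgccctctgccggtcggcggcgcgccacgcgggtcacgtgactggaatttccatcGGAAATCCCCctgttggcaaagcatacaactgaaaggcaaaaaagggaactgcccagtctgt
Nfkb2: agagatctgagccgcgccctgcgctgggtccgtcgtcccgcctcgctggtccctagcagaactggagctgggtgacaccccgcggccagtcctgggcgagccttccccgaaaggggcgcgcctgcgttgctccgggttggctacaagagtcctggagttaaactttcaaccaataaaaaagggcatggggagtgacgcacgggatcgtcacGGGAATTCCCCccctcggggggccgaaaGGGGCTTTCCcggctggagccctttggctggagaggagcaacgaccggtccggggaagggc

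The Nfkbia promoter held 1 match, GGAAATTCCC, whose first base lay 29 bases upstream of the start. In the Tnfaip3 promoter GGGACACCCC began 125 bases and GGAAATCCCC 12 bases upstream. In the Nfkb2 promoter GGGAATTCCC began 39 bases upstream, a match on the other strand overlapped it from 38 bases upstream, and GGGGCTTTCC began 11 bases upstream. Both strands were searched and overlapping matches were counted. RefSeq promoters were matched for 7 of the 10 genes, with 13 windows in all, since several genes have more than 1 start. Promoters of Relb, Nfkb1 and Ikbkb were not used here. The consensus was found in 5 of the 13 windows, against 8.46% of 32851 mouse promoters of the same length, and those 5 windows belonged to Nfkbia, Tnfaip3 and Nfkb2. Of the 5 windows, 3 belong to starts of Nfkb2, and 2 of these (chr19:46305445-46305744 and chr19:46305680-46305979) overlap and share the match GGGACTTTCC, which is counted in both. The hexamer at the core of the glucocorticoid response element, AGAACA on either strand, was found in 3 of the 13 windows, 1 of Tnfaip3 and 2 of Ikbkg, against 19.0% of all promoters. A match describes the letters of the window and is not a mapped binding site.

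The libraries held from 43778471 to 61150128 reads assigned to genes, and each of the 10 genes had between 71 and 3213 reads in every mouse. Levels are given as FPKM, the count of sequenced fragments scaled to transcript length and to the mapped reads of the library. Differences were tested with limma on log2(FPKM + 1) after quantile normalization, over 14370 genes with a mean of at least 30 reads, and a gene was called at an unadjusted p under 0.05 with a fold change above 1.2. The added 1 understates the change of genes with a low FPKM, such as Nfkb2. As a check of the genotype, the FPKM of Fkbp5 itself was 7.61, 6.46 and 7.28 in CT, 9.83, 9.47 and 10.3 in WT_ST and 3.59, 4.69 and 4.45 in KO_ST, so that the 3 groups did not overlap and its transcript was still counted in the knockout mice. KO_ST differed from WT_ST by a log2 fold change of -1.04 (standard error 0.0866, adjusted p = 0.00908 by limma). CT replicate 3 stood apart from the other libraries: the summed FPKM of 7 markers of blood-borne immune cells was 62.8 in it and between 2.57 and 9.66 in the other mice. The neuron markers of the labelled tissue were present, with 6 of them summing to an FPKM between 2177 and 2887. The summed FPKM of 8 microglia markers was between 152 and 193 in CT, between 121 and 135 in WT_ST and 69.7, 100.7 and 141 in the KO_ST mice.

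Averaged over the 9 mice, the genes spanned an FPKM from 0.584 for Nfkb2 to 15.05 for Nfkbib. From high to low the order was Nfkbib, Ikbkb, Chuk, Nfkbia, Rela, Ikbkg, Nfkb1, Relb, Tnfaip3 and Nfkb2. Neighbors in this order overlapped for Ikbkb and Chuk, where Ikbkb was higher in 8 of 9 mice, for Chuk and Nfkbia (7 of 9), for Rela and Ikbkg (8 of 9), and for Relb and Tnfaip3 (4 of 9). The ranges of the other 5 neighboring pairs did not overlap. The inhibitor Nfkbib and the catalytic kinase genes Ikbkb and Chuk were thus the most abundant per length of transcript, and the subunits of the noncanonical arm, Relb and Nfkb2, were among the lowest. Nfkbib varied least between mice, with a coefficient of variation of 3.57%, and Relb most, with 27.4%. In Relb the highest mouse lay 2.22 times above the lowest.

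None of the 10 genes was called in any comparison. In WT_ST against CT 0 of 10 genes were called, against 2.47% of all genes tested. In KO_ST against CT it was 0 of 10 against 3.56%, and in KO_ST against WT_ST 0 of 10 against 2.0%. At an unadjusted p under 0.05 alone, limma also found 0 of the 10 genes in each comparison, against 7.86%, 9.46% and 5.82% of all genes. Tested on the reads, edgeR and DESeq2 each put 2 of the 10 genes, Nfkb1 and Ikbkb, at an unadjusted p under 0.05 in KO_ST against CT, where 9.34% (edgeR) and 9.39% (DESeq2) of all genes passed. They put 0 of 10 there in WT_ST against CT, against 7.47% and 7.16% of all genes, and 0 of 10 in KO_ST against WT_ST, against 5.58% and 4.96%. With the 1.2-fold limit added, edgeR and DESeq2 called 0 of the 10 genes in each comparison, against 3.72% and 3.84% of all genes in WT_ST against CT, 4.63% and 5.14% in KO_ST against CT and 2.96% and 2.85% in KO_ST against WT_ST. At an adjusted p under 0.05, 0 of the 10 genes passed by limma, edgeR or DESeq2 in any comparison, where limma passed 0.0348%, 0.0626% and 0.153% of all genes. The median log2 fold change of the 10 genes was -0.017, -0.025 and -0.023 in the 3 comparisons, and that of all genes tested 0.0034, 0.0024 and -0.0015. Each group of mice enters a pair of these comparisons, so they are not independent of each other.

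**Figure D1:**
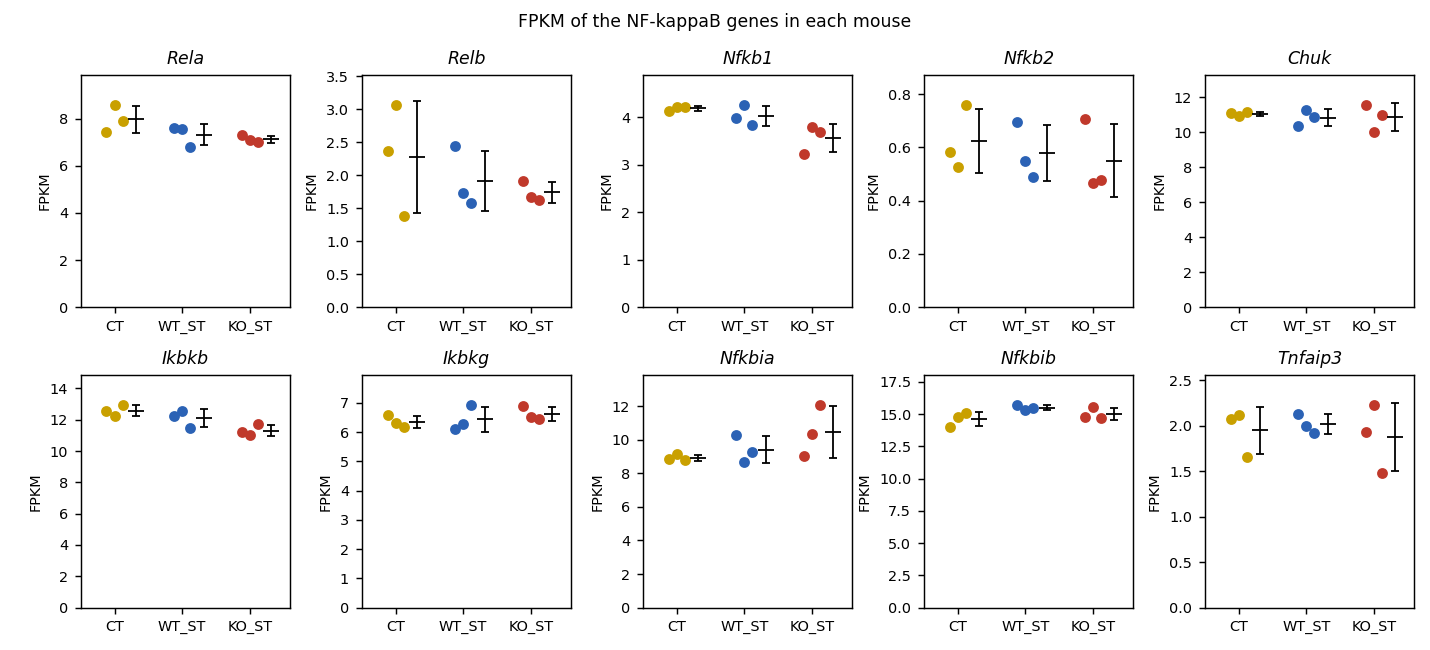
FPKM of each of the 10 genes in every mouse (dots) of CT, WT_ST and KO_ST, with the mean and SD of the 3 mice beside them and all axes starting at 0. Groups lie close together for most genes, while the CT mice of Relb spread from 1.38 to 3.07 and the KO_ST mice of Nfkbia from 9.01 to 12.1.

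Rela encodes p65, the subunit with a strong transactivation domain in the most common dimer. The CT mice had an FPKM of 7.43, 8.59 and 7.89, the WT_ST mice 7.59, 7.56 and 6.80, and the KO_ST mice 7.29, 7.09 and 7.01. All 3 KO_ST mice lay below all 3 CT mice, and WT_ST overlapped both groups. The log2 difference of KO_ST from CT was -0.10 (95% interval -0.26 to 0.056, adjusted p = 0.658 by limma). For WT_ST against CT it was -0.088 (-0.27 to 0.093, adjusted p = 0.785 by limma). Leaving out 1 mouse gave values from -0.14 to -0.053 in KO_ST against CT and from -0.13 to -0.035 in WT_ST against CT.

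Nfkb1 encodes p105, the precursor of p50, which pairs with p65. Its FPKM was 4.12, 4.21 and 4.22 in CT, 3.98, 4.26 and 3.83 in WT_ST and 3.23, 3.78 and 3.69 in KO_ST. All KO_ST mice lay below every mouse of the other groups, narrowly so against WT_ST, where the highest KO_ST mouse had 3.78 and the lowest WT_ST mouse 3.83. After quantile normalization KO_ST still lay below CT but overlapped WT_ST. The log2 difference was -0.15 from CT (standard error 0.0723, 95% interval -0.32 to 0.019, adjusted p = 0.559 by limma) and -0.13 from WT_ST (-0.30 to 0.041, adjusted p = 0.899 by limma). On the reads, edgeR gave -0.21 against CT (adjusted p = 0.525). By limma, leaving out 1 mouse gave values from -0.19 to -0.10 against CT and from -0.17 to -0.080 against WT_ST.

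Relb encodes the subunit that partners p52 in the noncanonical arm of the pathway. Its FPKM was 2.37, 3.07 and 1.38 in CT, 2.44, 1.73 and 1.59 in WT_ST and 1.91, 1.68 and 1.63 in KO_ST. CT replicate 3 was the lowest of the 9 mice and CT replicate 2 the highest, so that both stressed groups lay inside the range of CT. The log2 difference of KO_ST from CT was -0.19 (-0.64 to 0.26, adjusted p = 0.770 by limma), and edgeR gave -0.36 on the reads (adjusted p = 0.696). Without CT replicate 3, the mouse with the high blood-borne immune markers, it was -0.41 (adjusted p = 0.505 by limma) and Relb met the criterion for a call. Without CT replicate 2, the highest mouse, it was -0.013 (adjusted p = 0.992 by limma). Whether that mouse's cell content bears on its Relb level was not tested.

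Nfkb2 encodes p100, the precursor of p52 and itself an inhibitor. Its FPKM was the lowest of the 10 genes at 0.584, 0.528 and 0.760 in CT, 0.694, 0.550 and 0.490 in WT_ST and 0.707, 0.466 and 0.476 in KO_ST, from 71 to 120 reads per mouse. The groups overlapped throughout, and the log2 difference of KO_ST from CT was -0.039 (-0.25 to 0.17, adjusted p = 0.912 by limma). On the reads, without the added 1, edgeR gave -0.14 (adjusted p = 0.873). Its exons share 531 bases with AC114539.1 and 299 bases with Psd on the opposite strand. The library kit keeps strand, but whether the counting used it is not given in the sources used here, so reads of those stretches cannot be told apart.

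Chuk encodes IKK-alpha, the kinase that also drives the noncanonical arm. Its FPKM was 11.1, 10.9 and 11.1 in CT, 10.3, 11.3 and 10.9 in WT_ST and 11.6, 10.01 and 11.0 in KO_ST, and the groups overlapped in all comparisons. Its log2 difference of KO_ST from CT was 0.0010 with a 95% interval from -0.15 to 0.15 (adjusted p = 0.998 by limma), an interval inside the 1.2-fold limits, which are 0.26 on the log2 scale.

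Ikbkb encodes IKK-beta, the kinase that phosphorylates the inhibitor in the canonical arm. Its FPKM was 12.6, 12.3 and 12.9 in CT, 12.2, 12.6 and 11.5 in WT_ST and 11.2, 11.0 and 11.7 in KO_ST. The KO_ST mice all lay below the CT mice, before and after quantile normalization, while WT_ST overlapped both. The log2 difference of KO_ST from CT was -0.12 (standard error 0.0518, 95% interval -0.24 to 0.0066, adjusted p = 0.544 by limma), and edgeR gave -0.14 (adjusted p = 0.523). Both bounds of the interval lay inside the 1.2-fold limits.

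Ikbkg encodes NEMO, the regulatory scaffold that holds the kinases together. Its FPKM was 6.58, 6.30 and 6.19 in CT, 6.11, 6.29 and 6.92 in WT_ST and 6.90, 6.52 and 6.44 in KO_ST. The groups overlapped in all comparisons, and the log2 difference of KO_ST from CT was 0.084 (-0.063 to 0.23, adjusted p = 0.692 by limma). Its exons share 418 bases with G6pdx on the opposite strand, 5.15% of its exonic length.

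Nfkbia encodes IkappaB-alpha, the inhibitor that NF-kappaB itself induces and that carries the consensus match shown above. Its FPKM was 8.86, 9.14 and 8.81 in CT, 10.3, 8.66 and 9.27 in WT_ST and 9.01, 10.3 and 12.1 in KO_ST. The mean was 8.94 ± 0.180 in CT, 9.40 ± 0.811 in WT_ST and 10.5 ± 1.53 in KO_ST (SD, n = 3 each), so that the spread between mice was wider in both stressed groups. KO_ST replicate 1 lay inside the range of CT, and KO_ST replicate 3 was the highest of the 9 mice. The log2 difference of KO_ST from CT was 0.23 (standard error 0.0989, 95% interval -0.0056 to 0.46, adjusted p = 0.538 by limma). Without KO_ST replicate 1 it was 0.32 (adjusted p = 0.725 by limma), which met the criterion for a call, and without KO_ST replicate 3 it was 0.13 (adjusted p = 0.689 by limma). KO_ST replicate 1 had the lowest and KO_ST replicate 3 the highest summed microglia markers of its group, 69.7 and 141. On average CT had lower Nfkbia and higher microglia markers than KO_ST, and the part of cell content in the level of Nfkbia was not tested. In tissue RNA, fewer cells of a type and less RNA per cell cannot be told apart. The log2 difference of WT_ST from CT was 0.077 (-0.094 to 0.25, adjusted p = 0.802 by limma), and that of KO_ST from WT_ST was 0.15 (-0.10 to 0.41, adjusted p = 0.940 by limma). Leaving out 1 mouse gave values from 0.013 to 0.13 for the first and from 0.053 to 0.25 for the second.

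Nfkbib encodes IkappaB-beta, an inhibitor that is degraded and resynthesized more slowly. Its FPKM was 14.0, 14.8 and 15.1 in CT, 15.7, 15.3 and 15.5 in WT_ST and 14.8, 15.6 and 14.7 in KO_ST. It was the gene whose WT_ST mice all lay above the CT mice, by a log2 difference of 0.084 (-0.028 to 0.20, adjusted p = 0.693 by limma), an interval inside the 1.2-fold limits. KO_ST overlapped both other groups. Its exons share 314 bases with Ccer2 and 42 bases with Sirt2 on the opposite strand.

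Tnfaip3 encodes A20, which removes activating ubiquitin chains upstream of the kinases and is itself an NF-kappaB target. Its FPKM was 2.07, 2.12 and 1.65 in CT, 2.13, 1.995 and 1.91 in WT_ST and 1.93, 2.22 and 1.48 in KO_ST. All groups overlapped, and the log2 difference was 0.065 in WT_ST against CT (-0.15 to 0.28, adjusted p = 0.875 by limma) and -0.011 in KO_ST against CT (-0.30 to 0.28, adjusted p = 0.987 by limma). These intervals reach past the 1.2-fold limits, so a difference of that size lies within them.

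Counted by whether the FPKM of 2 groups overlapped, 1 of 10 genes (Nfkbib) lay apart in WT_ST against CT, with WT_ST higher, where 14.0% of all genes did and 6.03% in that direction. In KO_ST against CT 3 of 10 genes (Rela, Nfkb1 and Ikbkb) lay apart, all lower, against 16.5% of all genes and 10.6% in that direction. In KO_ST against WT_ST it was 1 of 10 (Nfkb1, lower), against 11.1% of all genes and 6.76% in that direction.

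**Figure D2:**
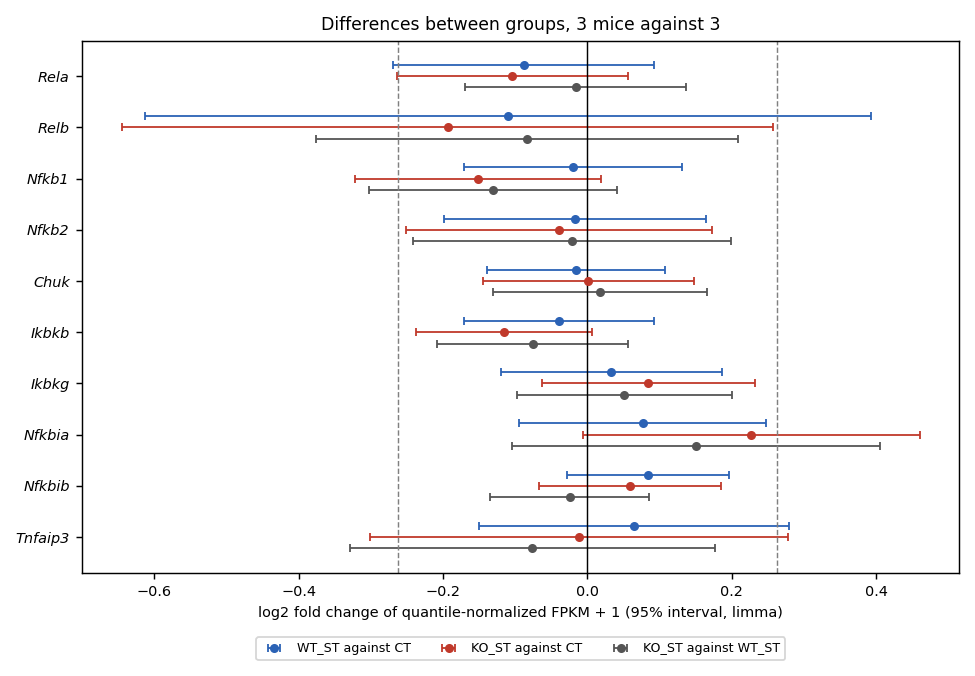
Log2 fold change of quantile-normalized FPKM + 1 (x axis) of each gene in the 3 comparisons, with 95% intervals from limma. The dashed lines mark a fold change of 1.2 in either direction, and every interval includes 0, with that of Nfkbia in KO_ST against CT reaching from -0.0056 to 0.46.

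The 10 genes did not vary as 1 block across the 9 mice. Of the 45 pairs, 22 had a positive Pearson correlation of quantile-normalized log2(FPKM + 1), and the median r was -0.068. No pair passed an adjusted p under 0.05 in an exact permutation test, and 3 pairs had an unadjusted exact permutation p under 0.05. The highest was Nfkb1 with Ikbkb, at r = 0.779 and rho = 0.717 (2-sided exact permutation p = 0.0072 and 0.0369, adjusted p = 0.137 and 0.363 over 45 pairs), and 0.480 after removing the group means. Without the 2 mice furthest from the median of Nfkb1, r was 0.856. The lowest was Ikbkb with Ikbkg, at r = -0.852 and rho = -0.767 (exact permutation p = 0.00467 and 0.0214, adjusted p = 0.137 and 0.363). Their r was -0.761 after removing the group means and -0.792 without the 2 mice furthest from the median of Ikbkb. Nfkb1 and Ikbkg had r = -0.785 and rho = -0.600 (exact permutation p = 0.00913 and 0.0968, adjusted p = 0.137 and 0.363), with -0.668 after removing the group means and -0.742 without the 2 mice furthest from the median of Nfkb1. The mice fall into 3 groups, so differences between groups enter these correlations, and each mouse is 1 library. The member most alike to Nfkbia was Nfkbib, at r = 0.345, and to Tnfaip3 it was Relb, at r = 0.617. For Nfkb2 it was Rela (r = 0.332), for Chuk it was Nfkb2 (r = 0.311) and for Ikbkg it was Chuk (r = 0.247), while Rela and Relb were most alike to each other (r = 0.648). Several of these fell without the 2 mice furthest from the median of 1 gene of the pair: Rela with Relb to 0.139 or -0.0087, Nfkbia with Nfkbib to 0.070 by Nfkbib, Nfkb2 with Chuk to -0.493 by Chuk, and Chuk with Ikbkg to 0.115 or -0.116, so these relations rest on those mice. Relb with Tnfaip3 had 0.549 or 0.384 and Rela with Nfkb2 0.700 or 0.439. Among all genes tested, those with a pattern most like Nfkbia were Timp3 (r = 0.925), Ddx20 (r = 0.907) and 1810062O18Rik (r = 0.906), all 3 highest in KO_ST replicate 3, as Nfkbia was. Without the 2 mice furthest from the median of Nfkbia, their r was 0.602, 0.895 and 0.594.

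**Figure D3:**
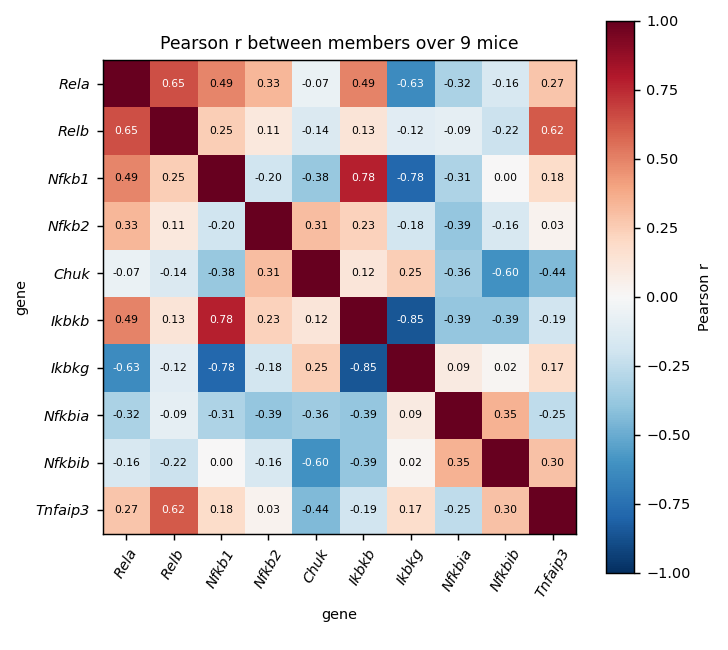
Pearson r between the 10 genes over the 9 mice, from quantile-normalized log2(FPKM + 1), with red for positive and blue for negative values. The strongest squares are Nfkb1 with Ikbkb at 0.78 and Ikbkb with Ikbkg at -0.85, and the others are of mixed sign.

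Beyond the 10 genes, 76 other genes of the pathway were listed by role, of which 59 passed the minimum of 30 reads and 17 did not. Of the 59, 1 (1.69%) was called in WT_ST against CT (higher), where 2.47% of all genes were, and 3 (5.08%) in KO_ST against CT (all lower), where 3.56% were. In KO_ST against WT_ST 0 were called, against 2.0% of all genes, while at an unadjusted p under 0.05 the lists held 1 inhibitor, 1 ligand and 1 receptor by limma, 5.08% of the 59 against 5.82% of all genes. EdgeR and DESeq2 each called 2 in that comparison, Il1a and Tlr2, where they called 2.96% and 2.85% of all genes. The ligand Il1a averaged 30 reads over the 9 mice, with 30 to 51 in WT_ST and 6 to 26 in KO_ST. Like Tlr2, it passed the minimum of 30 only through groups where it was higher. These counts are therefore no support for a difference in the lists. Over the 59 genes the median log2 fold change was 0.0023, -0.037 and -0.016 in the 3 comparisons. The ligands were scarce: 6 of 8 fell under 30 reads, Tnf had between 0 and 7 reads per mouse, Il1b between 4 and 26, and Cd40lg had 0 in all 9 mice. Of the target genes 8 of 18 fell under 30 reads, among them the cytokine Il6, with 0 reads in all 3 CT mice, 9, 2 and 3 in WT_ST and 0, 3 and 0 in KO_ST, and the chemokine Cxcl1 with 0 in all mice. A count of 0 allows up to 3 reads per mouse, by counting error alone, so low levels of these genes were not detectable at this depth.

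Among the receptors, Tlr2 encodes Toll-like receptor 2, a receptor for bacterial lipoproteins on microglia and other myeloid cells. Its FPKM was 0.352, 0.359 and 0.250 in CT, 0.328, 0.247 and 0.211 in WT_ST and 0.0939, 0.0734 and 0.0916 in KO_ST, from 36 to 64 reads in CT, 28 to 48 in WT_ST and 10 to 14 in KO_ST. All KO_ST mice lay below all other mice. With an average of 33.7 reads over the 9 mice, Tlr2 passed the minimum of 30 only through CT and WT_ST, where it was higher, so its tests are no support for a difference in the list. It was not tested among genes whose mean FPKM reached 1, where 2 of the other pathway genes, Cflar and Irak1, were called in KO_ST against CT. In KO_ST against CT its log2 fold change was -0.26 (standard error 0.0625, adjusted p = 0.458 by limma), a scale on which the added 1 outweighs so low an FPKM, and edgeR gave -1.86 on the reads (adjusted p = 0.203). DESeq2 gave an adjusted p of 0.0115. Against WT_ST the difference was -0.22 by limma (adjusted p = 0.706), under the fold threshold, and -1.59 by edgeR (adjusted p = 0.312). With limma the call in KO_ST against CT was lost without CT replicate 1, CT replicate 2 or KO_ST replicate 2, with values of -0.25, -0.23 and -0.26, which fall short of the 1.2-fold limit.

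Most microglia markers were lower in the stressed groups as well. Of the 8 microglia markers 7 were called lower in WT_ST and 7 in KO_ST against CT, where 2.47% and 3.56% of all genes were called. Cx3cr1, the fractalkine receptor, was among them, at -0.48 in WT_ST (adjusted p = 0.412 by limma) and -0.97 in KO_ST (adjusted p = 0.470 by limma). The remaining marker, Aif1, was not called. Its log2 fold change was -0.087 in WT_ST against CT, 0.064 in KO_ST against CT and 0.15 in KO_ST against WT_ST. Without CT replicate 3, 4 markers were called in WT_ST and 3 in KO_ST, and with all 9 mice in one fit 0 were called in WT_ST. With no moderation 4 were called in WT_ST and 2 in KO_ST, and in KO_ST 3 were called with no filter on reads, 4 with DESeq2 and 4 without KO_ST replicate 2. In KO_ST against WT_ST only P2ry12 of the 8 was called, at -0.42 (adjusted p = 0.852 by limma), and 7 were without KO_ST replicate 3, the KO_ST mouse with the highest markers. There 0 of the 8 were called with edgeR, with no filter on reads, among genes whose mean FPKM reached 1, with no moderation, with a replicate block or without any 1 of the other 5 mice. In that mouse the FPKM of Tlr2 was 0.0916, from 14 reads, and the summed microglia markers were 141. The part of microglia content in the level of Tlr2 was not tested. Of 6 astrocyte markers, Aqp4 and Slc1a3 were called lower in WT_ST against CT, while 2 of the 6 had a higher mean in each stressed group. Of 6 endothelial markers, Cldn5 was called lower in both stressed groups against CT and Kdr in KO_ST against both other groups. In each stressed group 1 of the 6 had a higher mean than in CT. All 6 neuron markers had higher means in both stressed groups, with 2 in WT_ST and 3 in KO_ST at an unadjusted p under 0.05 by limma. By limma 0 markers of neurons, oligodendrocytes, mural cells and blood-borne immune cells were called, and only 2 of the 7 blood-borne markers had enough reads to be tested.

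Cflar encodes c-FLIP, an inhibitor of caspase-8 activation. Its FPKM was 3.08, 2.95 and 2.99 in CT, 2.28, 2.44 and 2.62 in WT_ST and 2.52, 2.29 and 1.83 in KO_ST, and both stressed groups lay wholly below CT. It was called in KO_ST against CT, where the log2 fold change was -0.30 (standard error 0.0979, adjusted p = 0.499 by limma), and not in WT_ST against CT, where it was -0.19 (adjusted p = 0.634 by limma). On the reads, edgeR (-0.27, adjusted p = 0.626) and DESeq2 (-0.28, adjusted p = 0.239) called it in WT_ST against CT as well. The difference between the stressed groups was -0.10 (adjusted p = 0.942 by limma). The call was lost without CT replicate 1 (-0.28) or KO_ST replicate 3 (-0.20).

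Irak1 encodes a kinase that relays signals from Toll-like and interleukin-1 receptors. Its FPKM was 11.1, 13.8 and 15.3 in CT, 9.51, 11.7 and 13.4 in WT_ST and 9.29, 11.7 and 10.5 in KO_ST, with overlap between all groups. It was called in KO_ST against CT at a log2 fold change of -0.30 (standard error 0.124, adjusted p = 0.523 by limma), and not without CT replicate 2 or 3 or KO_ST replicate 1 or 3, where it lay between -0.30 and -0.21. The call of Irak1 was also lost with no filter on reads, with all 9 mice in one fit and with no moderation. Ptgs2, which encodes the prostaglandin synthase COX-2 and is a target gene, had an FPKM of 3.42, 2.36 and 2.83 in CT, 3.92, 3.30 and 3.64 in WT_ST and 3.15, 2.99 and 3.54 in KO_ST. It was called in WT_ST against CT at 0.28 (standard error 0.113, adjusted p = 0.635 by limma), although WT_ST replicate 2 lay below CT replicate 1, and not without CT replicate 2 or 3 or WT_ST replicate 1 or 3, where it lay between 0.20 and 0.28. The call of Ptgs2 was also lost without quantile normalization, with no filter on reads and with no moderation.

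By role, the median log2 difference of KO_ST from CT was -0.10 over 5 subunits, 0.059 over 5 inhibitors, 0.0020 over 10 kinases and their partners, -0.16 over 8 receptors, -0.037 over 19 adaptors and ubiquitin ligases, -0.038 over 10 brakes that remove or bind ubiquitin and -0.00094 over 10 target genes, with the 10 genes above included in their roles. Nfkbie, the gene of IkappaB-epsilon and chosen here after its values were seen, had an FPKM of 0.965, 0.840 and 1.147 in CT, 0.879, 1.03 and 0.758 in WT_ST and 0.676, 0.721 and 0.474 in KO_ST. All KO_ST mice lay below all others, by -0.25 against CT (adjusted p = 0.499 by limma) and -0.22 against WT_ST (adjusted p = 0.852 by limma). On the reads, edgeR gave -0.63 against CT (adjusted p = 0.523) and -0.51 against WT_ST (adjusted p = 0.907). Against CT it met the criterion for a call with edgeR, with DESeq2, with a pseudocount of 0.1 and without quantile normalization. Nfkbie lies on chromosome 17 at 45555700 to 45563169, the chromosome that carries Fkbp5 at 28398753 to 28486149 (GRCm38.p6). Ltb, Tnf and Lta, each under the minimum of reads, lie nearer to Fkbp5, between 35194507 and 35205578. Whether location bears on the level of Nfkbie was not tested.

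**Figure D4:**
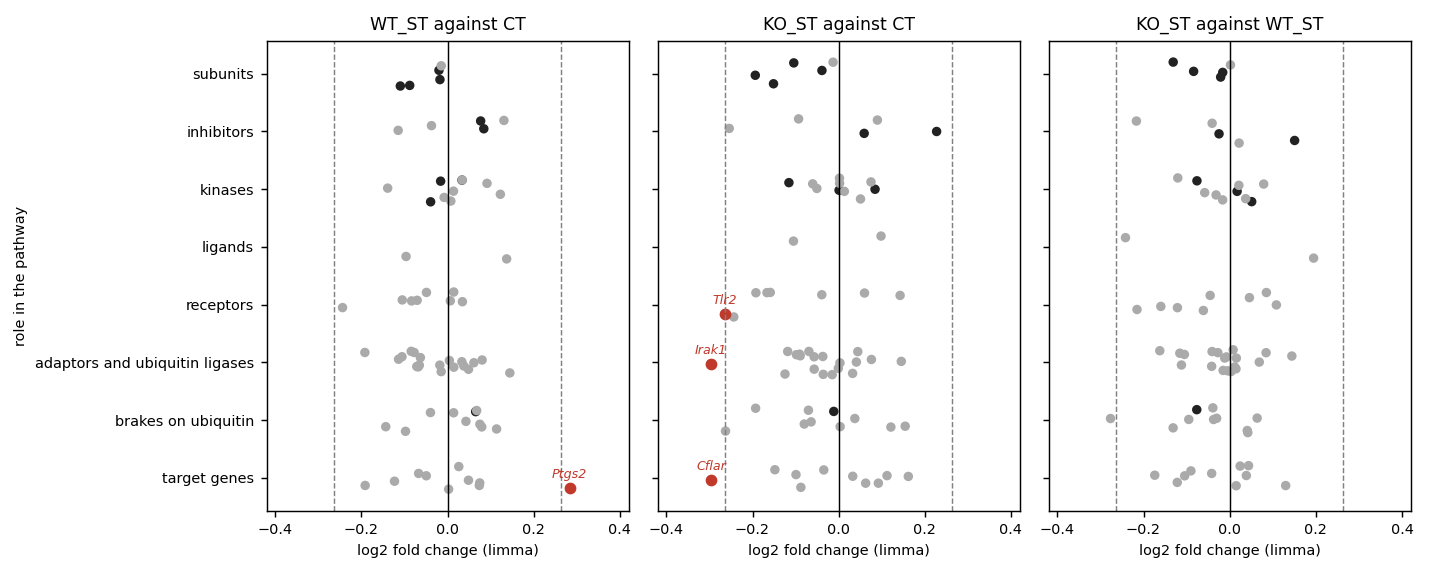
Log2 fold change from limma (x axis) of the pathway genes tested, by role (y axis), in the 3 comparisons, with the 10 genes in black, other pathway genes in gray and called genes in red and named. The dashed lines mark a fold change of 1.2, which Tlr2, Irak1 and Cflar pass in KO_ST against CT and Ptgs2 in WT_ST against CT. Cyld passes it in KO_ST against WT_ST, at -0.28 (adjusted p = 0.940 by limma), and was not called.

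**Figure D5:**
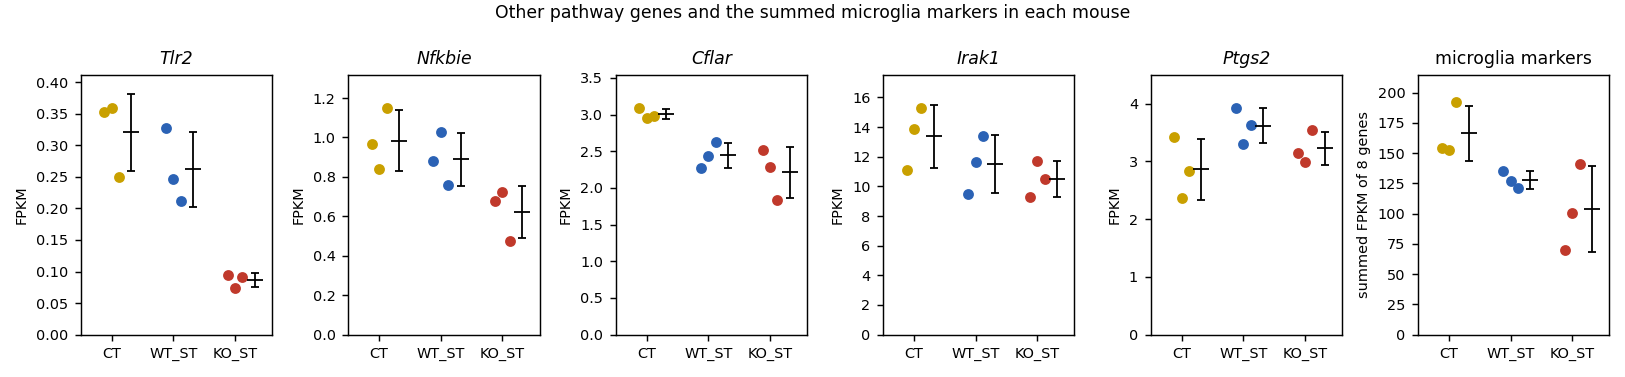
FPKM of Tlr2, Nfkbie, Cflar, Irak1 and Ptgs2 and the summed FPKM of 8 microglia markers in every mouse (dots), with the mean and SD of 3 mice. Tlr2 sits at 0.0734 to 0.0939 in KO_ST, below every other mouse, and the microglia sum of KO_ST spreads from 69.7 to 141.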

How the data were processed

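Libraries were made with a stranded poly(A) kit and sequenced as 101-base paired reads. The submitters' processing notes name HISAT2 2.1.0, Bowtie2 2.3.4.1 and StringTie 1.3.4d with mm10. The authors deposited, per mouse, read counts per gene without normalization and FPKM scaled to transcript length and mapped reads.

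Here log2 values were computed from the FPKM the authors deposited, as log2(FPKM + 1), and quantile normalized over the 9 mice. Each comparison was a moderated limma test (version 3.58.1, R 4.3.3) that allowed a trend of variance with level, fitted to the 6 mice of its groups alone, with Benjamini-Hochberg adjustment over 14370 genes averaging at least 30 reads. Alternatives were edgeR 4.0.16 and DESeq2 1.42.0 on the counts, another pseudocount, other filters, no quantile normalization, all mice in one fit, no moderation, a replicate block and leaving out each mouse. The limma, edgeR and DESeq2 steps were tested on simulated counts. Correlations were tested by exact permutation of the mice, a test added after the design was set.

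The 10 genes and all gene and marker lists were chosen with earlier results of these data known. Genes named are the 10, Fkbp5, every other pathway gene called, the nearest genes by correlation and called markers. Nfkbie, Il1a, Cyld, Aif1 and genes under 30 reads are named as well, and were picked after their values were seen. Nothing states that the mice of a group came from separate litters, so p-values measure the spread between these mice. Replicate numbers did not pair mice: after subtracting group means, mice of different groups that share a number had a mean r of -0.010, and those with different numbers 0.0049. The labels give 11 weeks of age, and the study's methods a younger age, without saying at which point of the experiment. Promoters and positions come from RefSeq (GRCm38.p6), exon overlaps from GENCODE. Plots were made in Python 3.11.15 (matplotlib 3.10.9).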

Additional observations from a re-analysis of the deposited data

How the results depend on the processing

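With 3 mice in a group, and on the log2(FPKM + 1) scale, which narrows the interval of the low gene Nfkb2, the 95% intervals of Rela, Relb, Nfkb1, Nfkbia and Tnfaip3 reached past 1.2-fold in KO_ST against CT. None of the 10 genes was called under the alternatives other than leaving out a mouse. Of 327 values of the 10 genes under those alternatives, 322 kept their direction and side of the threshold. The other 5 were those of Chuk in KO_ST against CT, 0.0010 in the report: -0.0255 without quantile normalization, -0.0031 with edgeR, -0.0045 with its RLE scaling, -0.0058 with no filter and -0.0046 with DESeq2. The lowest adjusted p among the 327 was 0.419 by limma. With a replicate block, the count of the 10 genes called was 0 in each comparison, and 399, 562 and 279 of all genes were called against 355, 512 and 287. The best match of a mouse in another group had its own number in 6 of 18 cases.

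With 1 mouse left out, the number of the 10 genes called in KO_ST against CT ranged from 0 to 1 (Relb or Nfkbia, as given in the report), and 153 of 180 values kept direction and side. The log2 differences that changed sign ranged as follows. In WT_ST against CT they ran from -0.3313 to 0.0712 for Relb, -0.0484 to 0.0113 for Nfkb1, -0.0751 to 0.028 for Nfkb2, -0.0424 to 0.0095 for Chuk, -0.0069 to 0.0585 for Ikbkg and -0.0185 to 0.1163 for Tnfaip3. In KO_ST against CT they ran from -0.1238 to 0.0068 for Nfkb2, -0.038 to 0.049 for Chuk and -0.0965 to 0.099 for Tnfaip3. In KO_ST against WT_ST they ran from -0.0693 to 0.0167 for Rela, -0.1701 to 0.0519 for Relb, -0.1058 to 0.0364 for Nfkb2, -0.0219 to 0.0653 for Chuk and -0.1613 to 0.0339 for Tnfaip3. The cause was not tested.

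Counts over all genes moved by over 1.5 times in WT_ST against CT (355) to 544 with a pseudocount of 0.1, 535 with edgeR, 700 with edgeR and no filter, 552 with DESeq2, 164 with no moderation and 544 without CT replicate 3. In KO_ST against CT (512) they moved to 843 with edgeR and no filter and 248 with no moderation. In KO_ST against WT_ST (287) they moved to 445 with a pseudocount of 0.1, 544 with edgeR and no filter, 138 with no moderation and 477 without KO_ST replicate 3. Of the called genes, 46.8%, 43.2% and 47.4% were higher in the 3 comparisons, against 34.1%, 28.5% and 44.7% without quantile normalization and 33.1%, 37.6% and 52.8% with edgeR. The other pathway genes called numbered 3 with edgeR or DESeq2 (Cflar, Ltbr and Ptgs2), 4 with edgeR and no filter (Il6 added) and 0 with no filter on reads, with no moderation or without CT replicate 2, CT replicate 3 or WT_ST replicate 3 in WT_ST against CT, 5 without quantile normalization or with DESeq2 in KO_ST against CT, and up to 3 in KO_ST against WT_ST. Those 3 were Il1a, Irak4 and Tlr2, of which Il1a and Tlr2 passed the read minimum only through groups where they were higher.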
